A study of Mus musculus with 24 samples.

Results

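Loss of Notch2 was examined in Ly6Chi monocytes, the classical monocytes of blood, of mice under skin treatment with imiquimod (IMQ). The 4 libraries of N2ΔMy Ly6Chi cells after IMQ were compared with the 4 libraries of wt Ly6Chi cells after IMQ, 8 of the 24 libraries of the series, with the replicate number entered as a block. The mice were 8 to 10 weeks old on a C57BL/6 background. N2ΔMy mice carry Cre recombinase in the Lyz2 locus and lox sites in both copies of Notch2, so that deletion is driven in all cells with an active Lyz2 gene, including neutrophils and macrophages, and they carry a GFP reporter in the Cx3cr1 locus. Controls were littermates called wt, were sorted by the same GFP signal, and their Cre and lox alleles are not given in the sources used here. Both genotypes received 50 mg per day of Aldara, a cream with 5% of the TLR7 agonist IMQ, for 4 to 5 days on depilated skin, and cells were sorted from peripheral blood on day 5 as GFP+ CD115+ Ly6Chi cells without CD43 or MHC-II on the surface. The same contrast in sham-treated Ly6Chi cells (4 libraries a genotype, Vaseline in place of Aldara, although the study's methods also call these mice untreated) and in Ly6Clo cells after IMQ (4 libraries a genotype) is given beside it.

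Notch receptors are cut by proteases after a ligand on a neighbouring cell binds them, and the freed inner domain enters the nucleus and switches on targets of the DNA-binding protein RBPJ, of which Hes1 is the textbook example. Blood monocytes come in a Ly6Chi form, which enters inflamed tissue and can become a macrophage, and a Ly6Clo form, which patrols the vessel wall and depends on the nuclear receptor Nr4a1. Ly6Chi cells are the source of Ly6Clo cells, and Notch2 is known to promote that step. The comparison asks which transcripts of the source cells differ when Notch2 is deleted and a TLR7 agonist acts on the animal.

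In N2ΔMy Ly6Chi cells after IMQ, 6 of 26 tested transcripts of a list of Ly6Clo monocyte markers were lower (Ace, Nr4a1, Bcl2, Eno3, Cd274 and Dusp5) and 1, the scavenger receptor Cd36, was higher. Notch2 and its target Hes1 were lower, and lysozyme 1, the complement receptor C3ar1, the lipase Lpl and the apolipoprotein Apoe were higher. Of 11230 genes tested with limma, 54 (0.481%) had a p of 0.05 or less after Benjamini-Hochberg adjustment together with a difference of 0.6 or more in either direction on the log2(value + 1) scale, 24 of them higher (0.214%) and 30 lower (0.267%) in N2ΔMy cells. These genes are called differentially expressed genes (DEGs). All 54 differed in the same direction in each of the 4 pairs of same-numbered libraries, and in 32 of them the N2ΔMy and wt libraries did not overlap, as in 3.84% of all genes tested. Both counts are a description only, since the DEGs were chosen by these same libraries and pairs. An unadjusted p under 0.05 was found for 14.8% of all genes, 8.15% higher and 6.69% lower. The number of DEGs depends on the block: without it, 3 genes were called (Lyz1, C3ar1 and Notch2). It fell to 27 without replicate 1 and to 20 without replicate 4, and to 2 without the filter on low values.

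**Figure D1:**
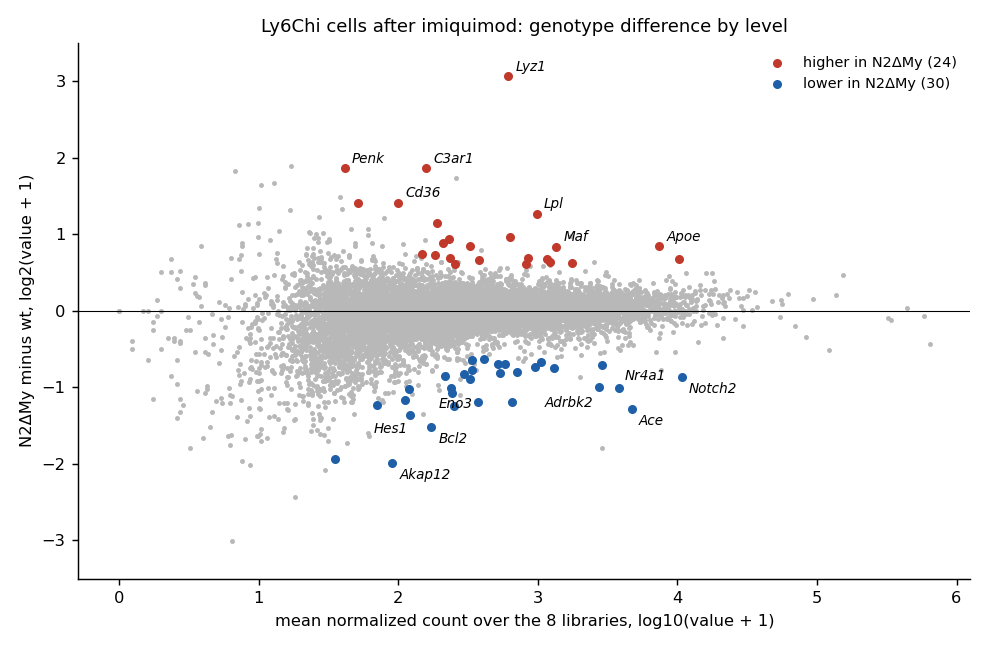
Difference between N2ΔMy and wt Ly6Chi cells after IMQ (y axis, log2(value + 1)) against the mean normalized count over the 8 libraries (x axis, log10(value + 1)), 1 point per gene tested. The 24 DEGs that were higher are red and the 30 that were lower are blue. Lyz1 stands alone above 3, and Notch2 and Apoe are among the most abundant DEGs.

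The table holds counts normalized and rounded by the authors, so the sum of a library is not its depth. Reads counted on genes, inferred from which whole numbers occur in a library, lay between 12264458 and 15590667 in the wt and between 13970947 and 17090287 in the N2ΔMy libraries after IMQ, and each library held 9406 to 9691 genes at 50 or above. Replicates 1 and 2 belong to the first of 2 library series by their library numbers and replicates 3 and 4 to the second, with both genotypes in each. The libraries matched their labels: Ly6c2, which encodes the antigen used in the sort, lay between 2370 and 9161 normalized counts in the 8 libraries and between 12 and 382 in the Ly6Clo libraries, and the genotypes overlapped (2615, 2686, 6233 and 6065 in wt and 2509, 2370, 9161 and 6302 in N2ΔMy cells). Of 14 markers of T and NK cells none had a value above 5 in any of the 8 libraries, and Ly6g, which marks neutrophils, was listed at 0 in all. A listed 0, here and below, does not by itself show that a gene is not expressed. Hemoglobin transcripts were high in replicate 4 of both genotypes, where Hbb-bs was at 458 and 843 against at most 6 in the other 6 libraries. The study's methods describe group sizes in general as biological replicates, but the labels tie no library to a mouse, so p-values measure the spread between these libraries, part of which may be technical.

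Notch2 (ENSMUSG00000027878.11, chromosome 3 of GRCm38, 98013527 to 98150361, plus strand) was at 14982, 14001, 13993 and 12656 normalized counts in the wt and at 8311, 7240, 7611 and 7303 in the N2ΔMy libraries 1 to 4. All N2ΔMy libraries lay below all wt libraries, and the N2ΔMy value was 55.5%, 51.7%, 54.4% and 57.7% of the wt value in pairs 1 to 4. The difference on the log2 scale was -0.87 (SE 0.07, 95% interval -1.02 to -0.72, limma adjusted p = 2.7e-04). The two-sided exact permutation test over the 70 assignments of 8 libraries, which leaves out the block, gave p = 0.0286, the smallest it can give. The count covers all exons of the gene and so does not give the share of cells with the deletion, and in bulk RNA fewer cells with a transcript and less transcript per cell cannot be told apart. In the other cells the reduction was of a like size, with a difference of -0.71 in sham Ly6Chi and -0.72 in Ly6Clo cells.

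Hes1, the transcriptional repressor induced by Notch (ENSMUSG00000022528.7, chromosome 16, 30064384 to 30067796, plus strand), was at 132, 187, 172 and 189 normalized counts in the wt and at 44, 44, 110 and 82 in the N2ΔMy libraries. The groups did not overlap, and the spread within N2ΔMy cells followed the library series, with 44 in both libraries of the first. The difference was -1.37 (SE 0.23, 95% interval -1.86 to -0.87, limma adjusted p = 0.019, exact permutation p = 0.0286), and in the 2 library series taken alone it was -1.81 and -0.92. Without the block the adjusted p of Hes1 was 0.435, and without replicate 1, 2 or 4 it was 0.0961, 0.0572 and 0.0969. In sham Ly6Chi cells Hes1 was at 110 ± 56.2 (SD, n = 4) in wt and 48 ± 13 (SD, n = 4) in N2ΔMy cells, and in Ly6Clo cells at 699 ± 85.9 (SD, n = 4) and 310 ± 48.7 (SD, n = 4). Hes1 was thus lower in N2ΔMy cells in all 3 comparisons, by -1.06 in sham and -1.18 in Ly6Clo cells, and the first of these did not pass (limma adjusted p = 0.222).

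**Figure D2:**
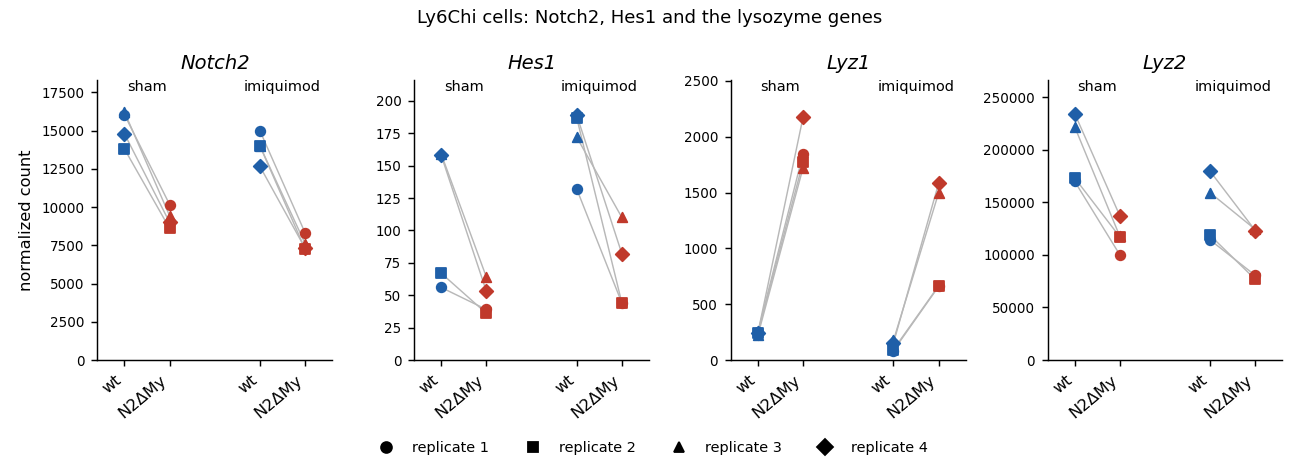
Normalized counts (y axes, from 0) of Notch2, Hes1, Lyz1 and Lyz2 in wt (blue) and N2ΔMy (red) Ly6Chi cells after sham treatment and IMQ, 1 point per library, with a line between libraries of the same replicate number. Every line falls for Notch2, Hes1 and Lyz2 and rises for Lyz1, in both treatments.

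Of 48 listed genes of the Notch pathway, 35 passed the filter on low values and 2 of these were DEGs, Notch2 and Hes1, where 0.481% of all genes were. At an unadjusted p under 0.05, 5 of the 35 were higher and 3 lower, where 8.15% and 6.69% of all genes were, and the median difference was 0.01, as over all genes. Among the receptors, Notch2 was the most abundant per length, at 1290 normalized counts per kb in wt cells after IMQ, against 164 for Notch1 and at most 1.61 for Notch3 and Notch4. Notch1, named after its values were seen, was at 2894, 2152, 2260 and 2043 in the wt and at 3763, 3244, 2930 and 2379 in the N2ΔMy libraries. It was higher in N2ΔMy cells in every pair although the groups overlapped, with a difference of 0.39 (SE 0.07, limma adjusted p = 0.030) that is under the fold minimum for a DEG. The same difference was -0.03 in sham Ly6Chi cells (unadjusted p = 0.674). The ligands Dll1, Dll3, Dll4 and Jag2 were at most 7 in each of the 8 libraries, as were the targets Hey1, Hey2, Heyl, Hes5, Hes7 and Nrarp, and Jag1 was between 4 and 21.

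Lyz1 and Lyz2 encode 2 lysozymes, enzymes that break bacterial walls, and lie next to each other on chromosome 10. Lyz1 (ENSMUSG00000069515.6, 117287797 to 117292868, minus strand) was at 84, 93, 175 and 152 normalized counts in the wt and at 659, 664, 1496 and 1582 in the N2ΔMy libraries after IMQ. All N2ΔMy libraries lay far above all wt libraries, 7.85, 7.14, 8.55 and 10.4 times as high in pairs 1 to 4. It was the largest difference among the DEGs, at 3.06 (SE 0.11, 95% interval 2.81 to 3.31, limma adjusted p = 1.9e-07), and it was 2.95 in sham Ly6Chi and 5.77 in Ly6Clo cells. Lyz2, which carries the Cre, was at 114186, 118596, 159115 and 179470 in the wt and at 80450, 76632, 124199 and 123074 in the N2ΔMy libraries. Here the groups overlapped but each N2ΔMy library was below its wt partner, at 64.6% to 78.1% of it, and the difference of -0.51 did not pass (SE 0.13, limma adjusted p = 0.105, exact permutation p = 0.171). The permutation test leaves out the block, so its p includes the spread between the library series. In sham cells Lyz2 was a DEG, with a difference of -0.75. In Ly6Clo cells its mean went the other way, at 36080 ± 8300 (SD, n = 4) in wt and 45520 ± 6590 (SD, n = 4) in N2ΔMy cells, with overlapping libraries. Transcripts of the genes share part of their sequence, so reads could be divided between them: of the 1189 distinct stretches of 75 bases, the read length, in Lyz1 transcripts, 74 (6.22%) also occur in Lyz2 transcripts.

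Within 10 Mb of Notch2, 3 of 234 genes tested were DEGs (1.28%), Notch2 itself, Lmna and RP24-500I24.5, and within 10 Mb of Lyz2, Lyz1 was the only DEG among 70 genes tested (1.43%). Of all genes tested 0.481% were DEGs. The part of these positions in the values of those genes was not tested.

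The list of Ly6Clo monocyte genes had the most DEGs and the median furthest from 0 among the lists with at least 8 tested genes. Of 27 genes listed, 26 were tested, of which 6 were DEGs that were lower and 1, Cd36, was higher, where 0.267% and 0.214% of all genes were. At an unadjusted p under 0.05, 17 were lower and 2 higher, where 6.69% and 8.15% of all genes were, and the median difference of the list was -0.55 against 0.01 over all genes tested. The count of 6 lower DEGs was 0 without the block, 5 with the library series as a covariate, 1 and 6 within the first and second series, and 4, 4, 8 and 2 without replicate 1, 2, 3 and 4. The count of 17 was 14 of 26 without the block, 17 with the library series as a covariate, 16 within each series and 17 to 19 without 1 replicate number, where 2.96% to 7.38% of all genes were lower. In sham cells 13 of the 26 were lower and 4 higher at an unadjusted p under 0.05, with a median of -0.28, where 5.98% and 6.23% of all genes were. In Ly6Clo cells 18 were DEGs that were lower, against 3.45% of all genes, with a median of -0.78. The list holds Nr4a1, Ace, Cd274, Itgb3 and Bcl2, which the study reported as lower in N2ΔMy Ly6Clo cells of these libraries. Part of the count of 18 was thus known in advance. The summed value of the list lay between 52505 and 73947 in the wt and between 38004 and 55740 in the N2ΔMy libraries after IMQ. These genes mark the cell that the sort leaves out by CD43, and a part of admixed Ly6Clo cells in the difference was not tested.

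Nr4a1, the nuclear receptor that Ly6Clo monocytes depend on (ENSMUSG00000023034.7, chromosome 15, 101254269 to 101274795), was at 3858, 5445, 4936 and 5704 normalized counts in the wt and at 1752, 1675, 3868 and 3220 in the N2ΔMy libraries. Libraries overlapped by a single pair of values, 3858 and 3868, and every pair was lower, by -0.35 to -1.70 (difference -1.00, SE 0.16, limma adjusted p = 0.015). Ace, which encodes the angiotensin-converting enzyme (ENSMUSG00000020681.14, chromosome 11, 105967945 to 105989964), was at 3687, 6524, 8370 and 8150 in the wt and at 2067, 1915, 4040 and 2923 in the N2ΔMy libraries. The highest N2ΔMy library was above the lowest wt library, but pairs differed by -0.83 to -1.77 (difference -1.28, SE 0.12, limma adjusted p = 9.0e-04).

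Bcl2, the survival factor for which Ly6Clo monocytes are known (ENSMUSG00000057329.7, chromosome 1, 106538178 to 106714274), was at 164, 239, 266 and 333 normalized counts in the wt and at 38, 90, 131 and 112 in the N2ΔMy libraries. The groups did not overlap, and the difference of -1.51 (SE 0.18, limma adjusted p = 0.0033) was the largest fall in the list among its DEGs. Of the 15 tested members of the Bcl2 family it was the only DEG, where 0.481% of all genes were, and 1 member was higher and 3 were lower at an unadjusted p under 0.05, where 8.15% and 6.69% of all genes were. Mcl1, the most abundant of the family, was at 11940 in wt and 13120 in N2ΔMy cells on average, a difference of 0.13 (limma adjusted p = 0.41). Among the factors that promote cell death, Bcl2l11 was 0.26 higher and Bbc3 0.38 lower at unadjusted p = 0.013 and 0.014.

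Cd274, the checkpoint ligand PD-L1, was at 148, 174, 158 and 151 in the wt and at 71, 55, 100 and 89 in the N2ΔMy libraries, without overlap (difference -1.03, limma adjusted p = 0.035). Eno3, a muscle-type enolase, fell from 526.5 ± 312 (SD, n = 4) to 221 ± 117 (SD, n = 4), with values that rose from the first to the second series in both genotypes and pair differences of -0.75 to -1.75 (difference -1.20, limma adjusted p = 0.0056). Dusp5, a phosphatase of the kinase ERK, had a difference of -0.89 (limma adjusted p = 0.037). Cd36 went the other way, at 28, 41, 84 and 65 in the wt and 80, 115, 211 and 170 in the N2ΔMy libraries, a near-equal difference of 1.32 to 1.48 in the 4 pairs. Of the members that did not pass the fold minimum, Pou2f2, the transcription factor Oct2 linked to this cell, was at -0.45 (adjusted p = 0.0072), the integrin Itgal at -0.41 (adjusted p = 0.037) and Spn, which encodes CD43, at -0.54 (adjusted p = 0.050). Cx3cr1, which carries the GFP, was 0.31 higher (adjusted p = 0.148).

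Of 26 listed genes of classical monocytes, 25 were tested and 2, Lyz1 and Cd177, were DEGs, both higher, where 0.214% of all genes were DEGs that were higher. At an unadjusted p under 0.05, 17 were higher and 3 lower (Lyz2, Plac8 and Klf4), where 8.15% and 6.69% of all genes were, with a median of 0.27. In sham cells 5 were higher and 1 lower, where 6.23% and 5.98% of all genes were, with a median of 0.07. Without the block 9 were higher, where 3.09% of all genes were, and within the series 13 and 11 were, where 4.06% and 5.21% of all genes were. Cd177, a surface glycoprotein (ENSMUSG00000052212.6, chromosome 7, 24743983 to 24760311), was at 1439, 1118, 1541 and 1386 in the wt and at 2031, 1502, 2725 and 2335 in the N2ΔMy libraries. Libraries overlapped only between N2ΔMy replicate 2 and wt replicate 3 (difference 0.62, SE 0.08, limma adjusted p = 0.0045), and in sham cells the difference was 0.07.

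Ccr2, the receptor by which monocytes leave the marrow, was singled out after its values were seen. It was at 13680, 13501, 12476 and 13440 in the wt and at 17456, 18536, 18924 and 20176 in the N2ΔMy libraries, without overlap and with a difference of 0.50 (SE 0.08, limma adjusted p = 0.013), under the fold minimum. F5, coagulation factor V, was likewise 0.51 higher without overlap (adjusted p = 0.0043). Ly6c2 was not called, with a difference of 0.09 and a 95% interval of -0.13 to 0.32.

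Of 36 listed macrophage genes, 29 were tested and 4 were DEGs that were higher, Lpl, Apoe, Cd36 and Maf, and 14 were higher and 2 lower at an unadjusted p under 0.05, with a median of 0.20. Of all genes 0.214% were DEGs that were higher, and 8.15% were higher and 6.69% lower at an unadjusted p under 0.05. The count of 4 DEGs was 0 without the block and 1 and 4 within the first and second series. The count of 14 was 11 without the block and 8 and 14 within the series, where 3.09%, 4.06% and 5.21% of all genes were higher. Among members with negative differences, Nr1h3, the sterol receptor LXR alpha, was at -0.91 (limma adjusted p = 0.062) and the fatty acid binding protein Fabp5 at -0.41 (limma adjusted p = 0.275), and neither passed. Timd4, Vcam1 and Lyve1, which mark resident macrophages, were listed at 0 in all 8 libraries, which does not by itself show that they are not expressed. C1qa, C1qb and C1qc, the subunits of complement C1q, averaged at most 43 in either genotype.

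Lpl, lipoprotein lipase, which frees fatty acids from lipoproteins (ENSMUSG00000015568.16, chromosome 8, 68880491 to 68907448), was at 388, 656, 774 and 502 in the wt and at 1114, 1091, 1650 and 1673 in the N2ΔMy libraries. The lowest N2ΔMy library was above the highest wt library (difference 1.27, SE 0.14, limma adjusted p = 0.0018). Apoe, the lipoprotein component (ENSMUSG00000002985.16, chromosome 7, 19696109 to 19699188), was at 4180, 3190, 5859 and 8323 in the wt and at 8113, 5645, 12730 and 11554 in the N2ΔMy libraries. The groups overlapped because the second series was higher in both genotypes, and pairs rose by 0.47 to 1.12 (difference 0.84, SE 0.09, limma adjusted p = 0.0025). Maf, a transcription factor of macrophages (ENSMUSG00000055435.6, chromosome 8, 115682942 to 115707794), was at 703, 915, 1321 and 947 in the wt and at 1369, 1382, 2243 and 1941 in the N2ΔMy libraries, without overlap (difference 0.84, SE 0.08, limma adjusted p = 9.3e-04).

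The 12 DEGs with the smallest adjusted p among the non-overlapping genes that were higher include Lyz1, Lpl and Maf, given above. C3ar1, the receptor for the complement fragment C3a (ENSMUSG00000040552.8, chromosome 6, 122847138 to 122856161), was at 52, 80, 62 and 73 in the wt and at 192, 213, 273 and 309 in the N2ΔMy libraries. Every N2ΔMy library was above 190 and every wt library at or below 80 (difference 1.86, SE 0.17, limma adjusted p = 7.4e-04). The signaling adaptor Dok2 was 0.93 higher, the C-type lectin receptor Clec4d 1.15, the complement component C4b 0.61, the lysosomal protease Ctsl 0.68 and the endosomal GTPase Rab7b 0.67. The zinc-finger gene Zfp658 was 0.68 higher.

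Penk, which encodes the precursor of enkephalin peptides, was at 9, 23, 35 and 8 in the wt and at 56, 45, 95 and 53 in the N2ΔMy libraries. The groups did not overlap at these low values (difference 1.86, SE 0.34, limma adjusted p = 0.032), and in sham cells the difference was -0.43. Lmna, the gene of the nuclear lamins A and C, was also higher, at 883.5 ± 152 (SD, n = 4) in wt and 1429 ± 363 (SD, n = 4) in N2ΔMy cells, with overlapping libraries.

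Among the genes that were lower, Adrbk2, a kinase that turns off G-protein-coupled receptors (ENSMUSG00000042249.11, chromosome 5, 112910482 to 113015791), stood next to Notch2 by adjusted p. It was at 4293, 3310, 4182 and 2940 in the wt and at 2426, 1684, 1650 and 1611 in the N2ΔMy libraries, without overlap (difference -1.00, SE 0.09, limma adjusted p = 4.9e-04). The 12 lower non-overlapping genes with the smallest adjusted p include Notch2, Hes1 and Bcl2, given above. Of the rest, Tiam2 and Spata13 encode exchange factors of small GTPases and were at differences of -0.75 and -0.74. The phosphatases Dusp16, which acts on the kinase JNK, and Phlpp1, which acts on AKT, were at -1.19 and -0.83. The others were Runx2, a transcription factor known from bone (-0.82), Abcb1a, a drug efflux pump (-1.23), the long noncoding RNA Mirt1 (-1.24) and AC137511.1 (-1.94). RP24-500I24.5 near Notch2 was at -1.16.

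**Figure D3:**
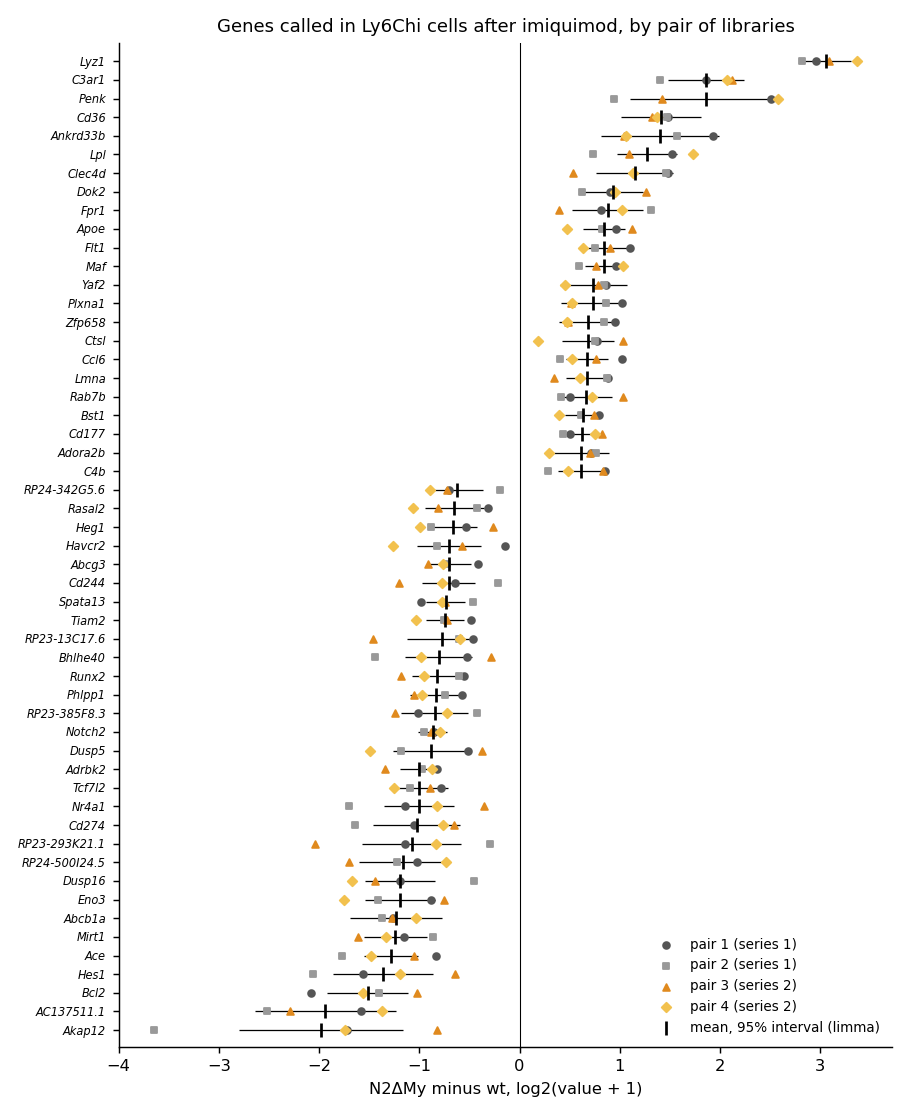
Difference between the N2ΔMy and the wt library of the same replicate number (x axis, log2(value + 1)) for 53 of the 54 DEGs (y axis). Symbols are the 4 pairs, black ticks the mean and black lines the 95% interval of limma. All pairs of a gene lie on 1 side of 0, with the widest spread for Akap12, Penk and RP23-293K21.1.

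In 3 cases DEGs were neighbours within 1 Mb, each time with the same direction. Mirt1 and Dusp5 on chromosome 19 lie 64313 bases apart and were both lower, as were Phlpp1 and Bcl2 on chromosome 1, 143928 bases apart. C3ar1 and Clec4d on chromosome 6, 405950 bases apart, were both higher. These pairs were looked for after the DEGs were known.

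RBPJ binds the core sequence GTGGGAA, which was searched on both strands in the RefSeq promoter windows of GRCm38.p6, from 250 bases before to 50 bases after the start of a gene. A window was available for 33 of the 54 DEGs, not including Hes1, Adrbk2, Maf or Lpl, which were not read, and 2 of the 33 (6.06%) held the core, against 7.25% of all 27025 genes with a window and 7.03% of the genes tested. The 2 windows are shown with the core in capitals, since these are the DEGs read in which the letters of the factor downstream of Notch2 occur near the start. Ankrd33b, which was higher, lies at chr15:31367710-31368009 and Mirt1, which was lower, at chr19:53464747-53465046, both on the minus strand. In Ankrd33b the core starts 178 bases before the start of the gene. In Mirt1 it is on the opposite strand (TTCCCAC), 17 bases after the start.
Ankrd33b: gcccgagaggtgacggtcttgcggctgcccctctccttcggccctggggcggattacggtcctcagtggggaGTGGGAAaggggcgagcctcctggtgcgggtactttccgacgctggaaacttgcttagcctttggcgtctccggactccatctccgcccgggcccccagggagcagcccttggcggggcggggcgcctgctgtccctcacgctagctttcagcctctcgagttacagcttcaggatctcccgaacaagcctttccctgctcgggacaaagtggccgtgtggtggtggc
Mirt1: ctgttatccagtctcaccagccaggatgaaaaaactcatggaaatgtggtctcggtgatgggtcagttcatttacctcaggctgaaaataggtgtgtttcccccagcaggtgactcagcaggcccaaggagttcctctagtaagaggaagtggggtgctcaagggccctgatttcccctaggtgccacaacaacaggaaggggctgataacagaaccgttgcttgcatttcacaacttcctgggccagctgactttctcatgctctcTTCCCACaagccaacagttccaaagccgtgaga
A match is a description of the letters only. Ankrd33b encodes a protein with ankyrin repeats, and its mean rose from 27.5 to 73.25 normalized counts (difference 1.40, limma adjusted p = 0.034). Mirt1 was at 427, 330, 403 and 253 in the wt and at 192, 181, 131 and 100 in the N2ΔMy libraries, without overlap (limma adjusted p = 0.0027).

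In the lists for the response to IMQ limma called no gene, where 0.481% of all genes were called, a share under 1 gene for lists of this size. Of 33 tested genes of the type I interferon response, 2 were higher and 6 lower at an unadjusted p under 0.05, where 8.15% and 6.69% of all genes were, with a median of -0.10. Its most abundant members Ifitm3, Ifi204, Trim30a and Ifi27l2a differed by 0.22, 0.19, -0.02 and 0.10, and most were higher in the second series in both genotypes: Ifitm3 was at 3468 and 4850 in the first and 10963 and 11921 in the second in wt cells. Of 29 tested genes of TLR7 signaling and inflammatory output, 7 were higher and 4 lower at the same threshold, with a median of 0.01. Unc93b1, which carries TLR7 to the endosome, was 0.21 higher without overlap of libraries (limma adjusted p = 0.192), Irf5 0.10 higher and Nfkb1 was at -0.15. The chemokine Ccl9 rose by 0.46 (limma adjusted p = 0.026), under the fold minimum.

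Below the fold minimum and picked after its values were seen, Tlr7, the receptor of IMQ, was at 2320, 2978, 2997 and 3349 in the wt and at 2083, 1949, 2204 and 2434 in the N2ΔMy libraries. Every pair was lower although the groups overlapped, with a difference of -0.42 (SE 0.08, 95% interval -0.59 to -0.25, limma adjusted p = 0.032). In sham cells it was -0.29 (unadjusted p = 0.0016). The receptor adaptor Myd88 differed by -0.06 (limma adjusted p = 0.79).

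Of immediate early and stress genes, which respond to handling of cells as well as to stimuli, none of the 18 tested was a DEG by limma. At an unadjusted p under 0.05, 10 were higher and 0 lower, with a median of 0.29. This count moved with the libraries, at 3 without the block, 12 and 4 within the first and second series and 5 without replicate 1, where 3.09%, 4.06%, 5.21% and 5.40% of all genes were higher, against 8.15% with all libraries and the block. The summed value of the list was 26901 to 49781 in wt and 36103 to 57852 in N2ΔMy libraries. Hspa8, a chaperone, was at 12285, 14602, 13921 and 18017 in the wt and at 16360, 19984, 23112 and 23304 in the N2ΔMy libraries (difference 0.49, limma adjusted p = 0.020). Fos, Zfp36 and Klf6 differed by 0.35, 0.15 and 0.28. The part of handling in the DEGs was not tested.

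The cell cycle list had 21 tested genes, of which 5 were lower and 0 higher at an unadjusted p under 0.05, where 6.69% and 8.15% of all genes were, and a median of -0.19, with no DEG at an adjusted p by limma. Mki67, which marks cells in cycle, was at 1699 ± 496 (SD, n = 4) in wt and 1284 ± 295 (SD, n = 4) in N2ΔMy cells (difference -0.39, limma adjusted p = 0.163), while Hmgb2, Pcna and Mcm4 differed by 0.04, 0.04 and -0.07. Genes of dendritic cells and MHC class II held no DEG among 23 tested, with 2 higher and 2 lower and a median of -0.07. Irf8 and Cd74, the invariant chain, differed by -0.13 and 0.21, H2-DMa by 0.33 and the transcriptional regulator Id2 by 0.58 (limma adjusted p = 0.049).

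Among markers of other cells, all 11 tested genes of the neutrophil and granule list had a positive difference, as had 53.0% of all genes, with a median of 0.26. Of the 11, 4 were higher at an unadjusted p under 0.05, against 8.15% of all genes, with Cd177 as the only DEG, where 0.481% of all genes were. The summed values overlapped, at 10301 to 18175 in wt and 12410 to 18782 in N2ΔMy libraries, with Ly6g listed at 0 and Mpo and Elane at means of at most 26.75. A listed 0 does not by itself show absence, and the part of neutrophils in these values was not tested. Of the B cell list 3 of 10 genes were tested: Ighm and Cd79b differed by 0.05 and 0.03 and Cd22 by -0.93 without overlap (limma adjusted p = 0.118), while Ms4a1 was at 0. No gene was called in the erythroid and platelet list (8 tested, summed values 50 to 909 in wt and 78 to 1641 in N2ΔMy libraries) or among 3 tested genes of plasmacytoid dendritic cells, where Tcf4, Bcl11a and Siglech differed by -0.14, -0.41 and 0.41. No gene of the T and NK cell list passed the filter. Xist was expressed in all 8 libraries and 4 Y-linked genes were at most 1, as in female cells.

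**Figure D4:**
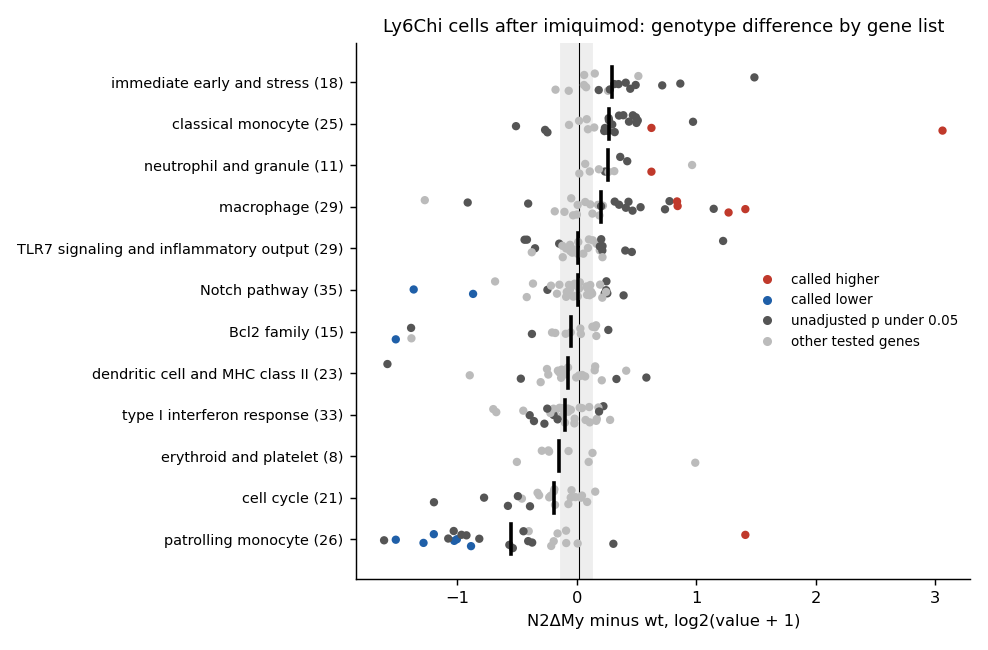
Difference between N2ΔMy and wt Ly6Chi cells after IMQ (x axis, log2(value + 1)) for the tested genes of the lists with at least 8 of them (y axis, number of tested genes in parentheses). Points are genes, thick bars the list medians, the grey band the middle 50% of all genes tested and the thin line their median. The patrolling monocyte list lies furthest to the left, with a median of -0.55, and the classical, macrophage, neutrophil and granule, and immediate early lists lie to the right, with medians of 0.20 to 0.29.

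The sham comparison asks whether these differences were there in mice without IMQ. In sham Ly6Chi cells 3 genes were DEGs (0.0267% of those tested, Lyz1, Notch2 and Lyz2), and 12.2% had an unadjusted p under 0.05. The count of 3 was 10 with a filter of 50 in at least 4 libraries and 10 with all 24 libraries in the fit. Of the 54 DEGs after IMQ, 52 had a difference of the same direction in sham cells (96.3%, against 66.0% of all genes tested) and 35 (64.8%) an unadjusted p under 0.05. The exceptions were Penk and Abcb1a, with differences of -0.43 and 0.01 in sham cells. Because the genes were chosen by their values after IMQ, their median size of 0.86 there is not comparable with 0.60 in sham cells. The difference of the differences was tested over the 16 Ly6Chi libraries as the interaction of genotype and treatment, in which limma called 0 genes (smallest adjusted p = 0.9999), with 3.38% of genes at an unadjusted p under 0.05, and 0 genes under each of the 10 alternatives run for it. A single replicate term served both treatments in this fit, so the pairs within a treatment were not modelled. For Lyz1 its SE was 0.29, against 0.11 after IMQ and 0.08 in sham cells in the separate fits. The 0 calls therefore do not show that the genotype differences were the same in both treatments. The test shares the libraries after IMQ with the choice of the DEGs, so that their p-values in it are a description only. Of the 54 DEGs, 11 had an unadjusted p under 0.05, among them Zfp658 (5.7e-04), Cd177 (7.2e-04), Abcb1a (7.5e-04) and Penk (0.0037).

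Abcb1a was at 59, 105, 124 and 105 in the wt and at 24, 40, 51 and 51 in the N2ΔMy libraries after IMQ, without overlap. In sham cells wt libraries were at 96.0, 76.0, 108.0 and 91.0 and N2ΔMy libraries at 76.0, 82.0, 124.0 and 96.0. Apoe was at 26820 ± 6140 (SD, n = 4) in wt and 30420 ± 5200 (SD, n = 4) in N2ΔMy libraries in sham cells, a difference of 0.20 (unadjusted p = 0.178) against 0.84 after IMQ (interaction unadjusted p = 0.018). None of these interactions passed an adjustment over all genes.

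The Ly6Clo comparison gives the same contrast in cells sorted as Ly6Clo without MHC-II, with no gate on CD43. By the study's flow cytometry, Ly6Clo cells of N2ΔMy mice after IMQ included an expanded population with macrophage surface markers. A different mix of cells and a different value per cell cannot be told apart in this comparison. In it, 8.36% of the genes tested were DEGs (4.92% higher and 3.45% lower), and 46 of the 54 DEGs of Ly6Chi cells (85.2%) were among them, all in the same direction, which is 4.90% of the DEGs of Ly6Clo cells. In Ly6Clo cells the 24 genes that were higher had a median difference of 1.93 and the 30 that were lower -0.91. Their sizes in Ly6Chi cells, by which they were chosen, are not comparable with these. The change of the genotype difference with the subset was tested as an interaction over the 16 libraries after IMQ, in which limma called 2.41% of the genes tested, among them 11 of the 24 higher and 0 of the 30 lower DEGs. The full count of 271 was 116 without the block and 137 and 136 without replicate 1 and 2. Here too a single replicate term served both subsets, so the pairs within a subset were not modelled. Over all genes the calls were likewise mostly in the positive direction, with 2.15% of genes at a more positive difference in Ly6Clo cells and 0.267% at a more negative one, and the test shares the Ly6Chi libraries with the choice of the DEGs. Of these 11, 10 had the larger difference in Ly6Clo cells, and the exception was Yaf2, which encodes a Polycomb-associated protein (0.73 and -0.06).

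Lpl was at 580 ± 169.7 (SD, n = 4) in wt and 1382 ± 323 (SD, n = 4) in N2ΔMy Ly6Chi cells, and at 196.5 ± 44.7 (SD, n = 4) and 2538 ± 301 (SD, n = 4) in Ly6Clo cells, so that the genotype difference was 3.71 there and 1.27 in Ly6Chi cells (interaction 2.44, SE 0.24, limma adjusted p = 1.7e-05). Bcl2, by contrast, differed by -1.20 in Ly6Clo and -1.51 in Ly6Chi cells (interaction 0.31, adjusted p = 0.741), and Nr4a1 by -0.86 and -1.00 (interaction 0.14, adjusted p = 0.895). A p that misses the threshold does not show that these differences were equal.

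**Figure D5:**
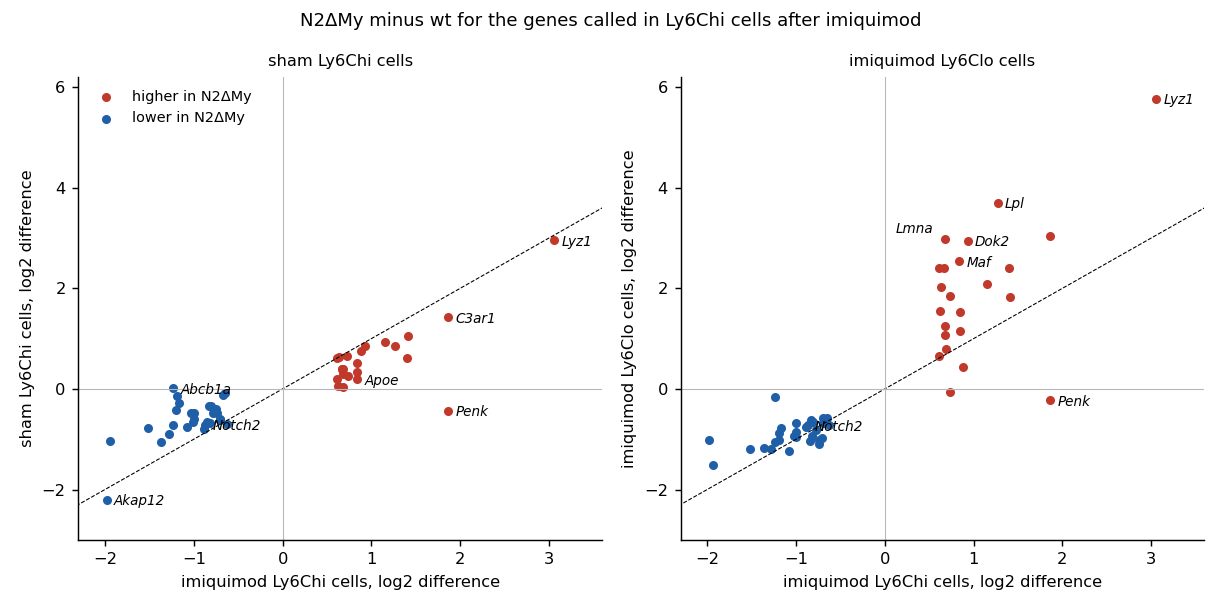
N2ΔMy minus wt on the log2(value + 1) scale for 53 of the 54 DEGs of Ly6Chi cells after IMQ (x axis) against the same difference in sham Ly6Chi cells (left, y axis) and in Ly6Clo cells after IMQ (right, y axis). Red genes were higher and blue genes lower in N2ΔMy Ly6Chi cells after IMQ, and the dashed line marks equal differences. On the right, red genes such as Lyz1, Lpl and Lmna lie far above the line, while most blue genes lie nearer to it.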

How the data were processed

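RNA was taken from sorted monocytes and sequenced as single reads of 75 bases. Per the labels and the study's methods, the authors trimmed the reads (Trim Galore 0.4.4), aligned them with STAR 2.5.3a to GRCm38.p6, counted them on GENCODE genes and scaled the counts by DESeq2. Each deposited value is a score, the normalized count rounded by the authors to a whole number, so count models were not used. Recomputed median-of-ratios factors lay between 1.0093 and 1.0112. The table lists 53715 genes, 25137 of them at 0 throughout. The authors' columns of fold changes, standard errors and p-values were not used.

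Groups and replicate numbers came from the labels. The 11230 genes that reached 50 in any of the 24 libraries were tested on log2(value + 1) with limma 3.58.1 in R 4.3.3 (lmFit, eBayes with trend), with a term for the replicate number (the block) and Benjamini-Hochberg adjustment over all genes. Deviations of same-numbered N2ΔMy and wt libraries from their group means correlated at 0.387 to 0.619 across genes, those of other numbers of the same library series at 0.314 to 0.586 and those of the other series at -0.585 to -0.335, so that the pairing carries mainly the series. Only 2 of the 4 N2ΔMy libraries correlated best with their own number. The depth estimate and the limma fits were tested on simulated data. Summaries were made in Python 3.11.15 with pandas 2.3.3 and numpy 2.4.6, exact tests with scipy 1.17.1 and plots with matplotlib 3.10.9.

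Named genes were Notch2, Hes1, the 12 higher and 12 lower non-overlapping DEGs with the smallest adjusted p, every DEG in a gene list, the most abundant members (at most 4) of a list with no DEG, and DEGs within 10 Mb of Notch2, Lyz2 or Cx3cr1. Other genes were named after their values were seen, and 2 genes are not reported here. The genes, lists and tests were chosen with earlier results of these data known. Depth sets the precision of low values, which the pseudocount of 1 compresses. Promoters are from RefSeq, and transcripts for the lysozyme comparison from a later GENCODE release of the same build.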

Additional observations from a re-analysis of the deposited data

Results flagged for a closer look

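The genotype difference after IMQ differed between Ly6Clo and Ly6Chi cells (interaction of genotype and subset, limma, adjusted over all genes) for 7 named genes, each higher in N2ΔMy cells of both subsets and by more in Ly6Clo cells. On the log2(value + 1) scale the difference was larger in Ly6Clo cells by 2.71 for Lyz1, 2.44 for Lpl, 2.31 for Lmna, 2.01 for Dok2, 1.80 for C4b, 1.73 for Rab7b and 1.70 for Maf. The part of a different mix of cells in the Ly6Clo sort was not tested.

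Among 66 groups of 4 libraries of the named genes, 4 held a library far from the other 3 by the gap to its nearest neighbour as a share of the group's range on the log2 scale, where chance gives about 1 in 20 groups. In wt cells the lowest library of Rab7b had a share of 0.838 and the highest of Dusp16 0.889. In N2ΔMy cells the highest library of Adrbk2 had a share of 0.892 and the lowest of Phlpp1 0.916.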

How the results depend on the processing

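The number of DEGs after IMQ depends on how the pairs are modelled, on the spread estimate and on the libraries. The main value of 54 was 3 with no replicate block (679 genes at an unadjusted p under 0.05, against 1666), 29 with the library series as a covariate, 32 with a random block, 2 without a filter on low values, 2 without the trend and 31 with all 24 libraries in the fit. Within the library series it was 9 and 99. Leaving out 1 replicate number, or 1 library without the block, gave 0 to 49: 20 to 49 with the block and 0 to 4 without it. The other 7 alternatives gave 45 to 73.

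The Notch2 difference kept its direction throughout, at -0.96 to -0.83. It was -0.87 without the trend, where it did not pass (adjusted p = 0.133), and without 1 library it was -0.91 to -0.83, where 6 of the 8 single libraries left out without the block ended the call. Hes1 was -1.37 with no replicate block, without the filter and without the trend (adjusted p = 0.435, 0.372 and 0.237), and -1.81 and -0.92 within the series (0.134 and 0.122), and passed in none of these. Without a replicate number or library it was -1.62 to -1.13, and of these fits it passed only in the one without replicate 3 (limma adjusted p = 0.011).

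The other 31 named genes gave 836 values under 27 alternatives, of which 386 stayed past the threshold, 450 did not and 0 changed direction. All 31 were called with a pseudocount of 0.1 or 10, 30 with the stricter filter, 2 with no replicate block and 12 without replicate 4. The list counts, chosen after seeing the data, are given beside the lists.

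In sham cells the count of 3 was 10 with the stricter filter and with all 24 libraries, 1 without the trend and 2 to 3 without 1 replicate number. In Ly6Clo cells 939 became 537 with no replicate block, 602 without the trend and 686 to 943 without 1 replicate number. The interaction of genotype and subset gave 116 with no replicate block, 171 without the trend and 136 to 241 without 1 replicate number, in place of 271. The causes were not tested. The depth was inferred from the values, so counting intervals are not given, and differences of genes near 0 could not be read.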

Other observations

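The 54 DEGs also held genes outside the naming rule, which were picked here after their values were seen. Cd244, a receptor of the SLAM family, was at 3559 ± 470 (SD, n = 4) in wt and 2184 ± 322 (SD, n = 4) in N2ΔMy cells without overlap (difference -0.71, limma adjusted p = 0.020). Havcr2, the checkpoint receptor TIM-3, was at -0.70 (adjusted p = 0.047), and the transcription factors Tcf7l2 and Bhlhe40 were at -1.00 and -0.81 (adjusted p = 0.0048 and 0.034). Akap12, a scaffold of protein kinase A, had the largest fall of all DEGs, -1.98, with pairs from -3.65 to -0.82. Among the genes that were higher, the chemokine Ccl6 was at 7982 ± 2163 (SD, n = 4) and 12650 ± 2932 (SD, n = 4), a difference of 0.68 (adjusted p = 0.0082), Fpr1, the receptor for bacterial formyl peptides, at 0.88 (adjusted p = 0.030), Flt1, a receptor for VEGF, at 0.84 (adjusted p = 0.0072), Bst1, an ectoenzyme of the CD38 family, at 0.63 (adjusted p = 0.0045), Plxna1, a semaphorin receptor, at 0.73 (adjusted p = 0.042) and Adora2b, an adenosine receptor, at 0.62 (adjusted p = 0.044).

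Without a fold minimum, 138 genes passed an adjusted p of 0.05, among them Notch1, Ccr2, Tlr7 and Socs3, the inhibitor of cytokine signaling, which was at 2349 ± 520 (SD, n = 4) in wt and 1717 ± 236 (SD, n = 4) in N2ΔMy cells (difference -0.44, limma adjusted p = 0.020).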
